A study of Mus musculus with 5 samples.

Results

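The granzyme and perforin loci of IL-2-activated CD8+ T cells (CD8-TC) are the 10 mouse genes Gzma, Gzmb, Gzmc, Gzmd, Gzme, Gzmf, Gzmg, Gzmk, Gzmn and Prf1, each taken as its annotated body extended by 20 kb on both sides. A Runx3-bound or H3K4me1-marked region belonged to a locus when it shared at least 1 bp with this window. By this rule 8 of 9135 Runx3-bound regions and 19 of 18992 H3K4me1-marked regions lay at the 10 genes, that is 27 of the 28127 regions of both lists. ChIP-seq had been carried out on CD8-TC from spleens of ICR mice, selected on anti-CD8 beads, TCR-activated for 2 days with anti-CD3e and anti-CD28 and grown for 4 further days with 100 u/ml human IL-2. The 5 libraries were 2 with the study's own polyclonal anti-Runx3 serum, 2 with non-immune serum (NIS) and 1 with a monoclonal anti-H3K4me1 antibody, and all came from cells of this single condition, with no knockout and no resting cells among them. Peaks were called once for each antibody on joined reads and the lists hold positions only. The numbers below therefore have no replicate error, read depth behind a region is unknown, and each share carries a 95% Wilson interval that covers only the counting error among regions.

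Cytotoxic T cells kill by releasing granules in which perforin, the product of Prf1, forms pores in the target cell membrane through which granzymes, a family of serine proteases, enter. Granzyme B cleaves after aspartate and activates caspases, and granzymes A and K are tryptase-like. Runx3, a transcription factor of the RUNX family that acts in the CD8 lineage, binds the motif TGTGGT and its variants. H3K4me1, monomethylated lysine 4 of histone H3, marks enhancers and the flanks of active promoters. In the mouse, Gzma and Gzmk lie together on chromosome 13, Prf1 lies on chromosome 10, and Gzmb stands at 1 end of a cluster on chromosome 14 with Gzmc, Gzmf, Gzmn, Gzmg, Gzmd and Gzme, all transcribed away from the Gzmb upstream side. All 6 of 6 T cell markers (Cd3d, Cd3e, Cd3g, Cd8a, Cd8b1 and Cd2) held regions of both lists. The windows of Cd3d, Cd3e and Cd3g overlap, as do those of Cd8a and Cd8b1, so they do not count as separate cases. Of all protein-coding genes, 34.2% held a Runx3-bound region and 39.3% an H3K4me1-marked region in the same kind of window. In each list of markers of other cells 1 gene held a Runx3-bound region, namely Cd79a of 3 B cell markers (1 region), Klrb1c of 2 natural killer cell markers (2 regions), Itgam of 3 myeloid markers (1 region) and Cpa3 of 3 mast cell markers (1 region). H3K4me1-marked regions were held by 2, 1, 2 and 2 genes of these lists.

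The sequences under the Runx3-bound regions nearest to the gene starts are shown first because the rest of the results turn on their RUNX motifs. Each is up to 300 bases around the centre of the region on mm9, written 5′ to 3′ on the strand of the gene named, with RUNX motifs in capitals. The motif was searched on both strands as TGTGGT and as its variants, of which TGTGGC is one, TGCGGT the next and TGCGGC the last. The last is from the region with the most RUNX motifs among the 8, of which its central part holds 3 of 6.
Gzmb start, chr14:56881098-56881397, minus strand: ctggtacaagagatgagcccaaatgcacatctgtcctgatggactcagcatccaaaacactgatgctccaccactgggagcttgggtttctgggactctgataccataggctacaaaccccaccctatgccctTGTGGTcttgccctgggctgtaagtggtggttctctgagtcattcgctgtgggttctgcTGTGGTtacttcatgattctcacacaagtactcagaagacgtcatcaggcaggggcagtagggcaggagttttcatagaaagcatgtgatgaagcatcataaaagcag
Gzmc start, chr14:56853503-56853802, minus strand: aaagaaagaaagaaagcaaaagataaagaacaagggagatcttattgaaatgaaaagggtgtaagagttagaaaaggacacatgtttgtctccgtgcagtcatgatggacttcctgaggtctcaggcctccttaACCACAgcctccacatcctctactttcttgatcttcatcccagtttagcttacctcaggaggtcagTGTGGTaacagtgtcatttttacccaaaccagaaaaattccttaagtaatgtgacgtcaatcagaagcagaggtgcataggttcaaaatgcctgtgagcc
Prf1 start, chr10:60760390-60760689, plus strand: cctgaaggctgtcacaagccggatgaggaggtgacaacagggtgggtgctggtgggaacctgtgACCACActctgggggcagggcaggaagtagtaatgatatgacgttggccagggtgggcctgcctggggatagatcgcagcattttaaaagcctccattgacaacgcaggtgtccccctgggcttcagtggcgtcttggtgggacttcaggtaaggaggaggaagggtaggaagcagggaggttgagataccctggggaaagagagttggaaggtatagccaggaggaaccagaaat
Gzmk intron, chr13:114001592-114001891, minus strand: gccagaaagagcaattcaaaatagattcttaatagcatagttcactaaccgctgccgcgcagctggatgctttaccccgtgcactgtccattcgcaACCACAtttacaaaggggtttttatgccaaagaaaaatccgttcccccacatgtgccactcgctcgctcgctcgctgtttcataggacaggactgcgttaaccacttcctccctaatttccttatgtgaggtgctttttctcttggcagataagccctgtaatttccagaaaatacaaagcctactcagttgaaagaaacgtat
Prf1 downstream, chr10:60768946-60769245, plus strand: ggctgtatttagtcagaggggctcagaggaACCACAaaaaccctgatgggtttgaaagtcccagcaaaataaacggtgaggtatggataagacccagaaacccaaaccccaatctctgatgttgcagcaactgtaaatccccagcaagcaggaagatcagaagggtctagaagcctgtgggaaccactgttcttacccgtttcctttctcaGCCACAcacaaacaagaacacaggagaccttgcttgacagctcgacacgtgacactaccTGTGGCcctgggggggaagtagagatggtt
The Gzmb sequence carries a pair of TGTGGT motifs in the same orientation with an AP-1 motif (tgagtca) between them. The Gzmc sequence carries a pair as well, 1 on each strand, which is why the upstream one reads ACCACA.

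The first question was which of the cytotoxic genes carried Runx3. Gzmb and Prf1 held 3 Runx3-bound regions each, Gzmc and Gzmk held 1 each, and Gzma, Gzmd, Gzme, Gzmf, Gzmg and Gzmn held none. Of all 22367 protein-coding genes, 34.2% held at least 1 Runx3-bound region in the same kind of window, so that 4 of 10 is close to that background. From Gzme to Gzmb the windows of neighbouring genes overlap, so the 10 genes do not count as separate cases for either list. At least 3 Runx3-bound regions were held by 1213 genes or 5.42%, a group that includes Gzmb and Prf1. The windows of the 10 genes had a median length of 44.8 kb (range 43.0 to 94.3 kb) against 55.4 kb over all protein-coding genes.

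H3K4me1-marked regions were called at 5 of the 10 genes, against 39.3% of all protein-coding genes. Gzmb held 7, Gzma 5, Prf1 4, Gzmk 3 and Gzmc 1, and the remaining 5 genes held none. The mark covered 27.6% of the Gzmb window, as much or more than which was found at 0.738% of protein-coding genes. It covered 17.2% at Gzma and 13.8% at Prf1, levels reached by 2.92% and 4.85% of genes, and 5.28% at Gzmk and 2.58% at Gzmc. A Runx3-bound region that overlapped an H3K4me1-marked region was found at 2 of the 10 genes, Gzmb and Prf1, against 17.8% of all genes. The 10 genes thus fell into genes with both lists at the start (Gzmb and Prf1), with H3K4me1 but no Runx3 region (Gzma), with separate regions of both lists (Gzmc and Gzmk) and with neither (Gzmd, Gzme, Gzmf, Gzmg and Gzmn).

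**Figure D1:**
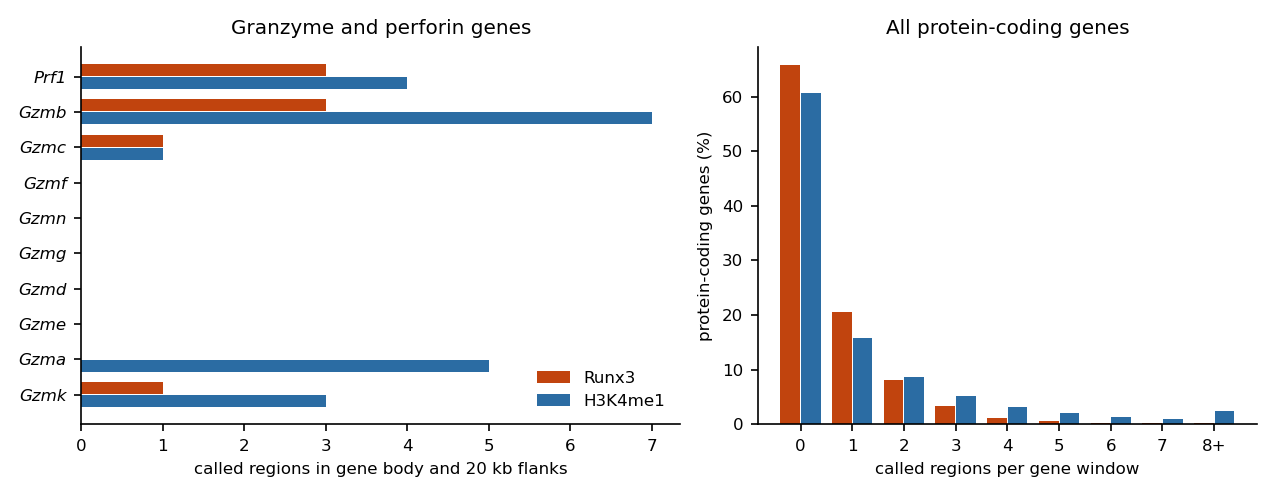
Called regions per gene. Bars in the left panel give the number of Runx3-bound (orange) and H3K4me1-marked (blue) regions in the body and 20 kb flanks of each of the 10 genes, and the right panel gives the percentage of all 22367 protein-coding genes with each number; Gzmb (3 and 7) and Prf1 (3 and 4) hold the most Runx3-bound regions and 5 genes of the chromosome 14 cluster hold no region.

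The vicinity of the gene start was counted separately. A Runx3-bound region lay within 1 kb of the annotated start of 3 of the 10 genes, Gzmb, Gzmc and Prf1, against 9.42% of all protein-coding genes. An H3K4me1-marked region lay within 1 kb of the start of 3 of the 10, Gzma, Gzmb and Prf1, against 8.26% of all genes. Within 20 kb of the annotated start, the same number of 4 of 10 genes held a Runx3-bound region, against 25.9% of all genes. Gzmk is among the 4 only through the start of its longest transcript. Without that transcript the nearest Runx3-bound region lay 30.4 kb from the Gzmk start.

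Gzmb, which encodes granzyme B (chr14:56877693-56881097, minus strand), had a Runx3-bound region of 609 bp across its start, chr14:56880943-56881551, whose centre lay 0.150 kb upstream and which reached over the 5′ UTR into a coding exon. Of this region 88.2% lay in an H3K4me1-marked region of 2380 bp. The next Runx3-bound region, of 542 bp, chr14:56884916-56885457, was centred 4.09 kb upstream and lay wholly within H3K4me1. The third, of 866 bp, chr14:56894651-56895516, was centred 14 kb upstream, lay between 2 H3K4me1-marked regions without touching either, and was 85 bp from the nearer one. It differed from the others also in its sequence, since only 58.1% of its 40-base words occur once in the genome against 100% for both regions nearer to the gene.

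All but 1 of the 7 H3K4me1-marked regions of the Gzmb window were centred upstream of its start. They lay 1.11, 3.99, 9.37, 12.7, 15.9 and 19.9 kb upstream and were 1508 to 3853 bp wide. The seventh, of 1115 bp, lay between Gzmb and Gzmc over an annotated small nucleolar RNA (SNORA17) and belonged to the windows of both genes. No region of either list lay inside the Gzmb body beyond its 5′ end.

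The upstream side of Gzmb carried regions well past the 20 kb limit. Between the Gzmb start and 50 kb upstream, 7 Runx3-bound regions and 11 H3K4me1-marked regions were called, and H3K4me1 covered 48.7% of this stretch. The innermost of the Runx3-bound regions beyond the limit was centred 22.3 kb upstream, and the others at 25.8, 34.1 and 34.8 kb. These 4 all overlapped H3K4me1, by 49.1%, 100%, 100% and 54.9% of their length. The gene on the far side, Atp12a, starts 103 kb from Gzmb, and 8 Runx3-bound regions and 11 H3K4me1-marked regions fell in that interval.

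Downstream of Gzmb the lists became sparse. Gzmc (chr14:56850238-56853493, minus strand), a chymase-like granzyme of rodents, had a single Runx3-bound region, chr14:56853501-56853803, which at 303 bp was the narrowest of the 8. Its edge lay 8 bp upstream of the annotated Gzmc start and its centre 0.159 kb upstream. No H3K4me1-marked region overlapped it, and the nearest one, the region at SNORA17, was 5423 bp away.

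From the outer edge of the Gzmc region on, no region of either list was called for 288 kb (chr14:56565970-56853500). Gzmf, Gzmn, Gzmg, Gzmd and Gzme all lie in this stretch, 23.3, 60.1, 75.1, 102 and 114 kb from their starts to the nearest Runx3-bound region, which for each of them is the one at Gzmc. Stretches at least as long made up 6.42% (1425 of 22183) of the gaps between neighbouring regions of the 2 lists, whose median was 11.5 kb. RUNX motifs were no scarcer there than upstream of Gzmb, with 453 or 1.58 per kb in the 288 kb stretch, 1.71 per kb from Gzme to Gzmf and 1.46 per kb in the 50 kb upstream of Gzmb.

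The authors kept uniquely aligned reads of 40 to 42 bases, so the share of 40-base words that occur once in the genome was measured across the loci. It was 86.3% in words sampled across the genome and 98.0% over all Runx3-bound regions. In the windows it was 93.1% at Prf1, 94.8% at Gzmk and 85.2% at Gzma, and on chromosome 14 it was 75.5% at Gzmb, 63.7% at Gzmc, 49.8% at Gzmf, 73.0% at Gzmn, 79.6% at Gzmg, 61.7% at Gzmd and 74.2% at Gzme. The lowest stretch lay between Gzmf and Gzmn, where 5 of the 2 kb bins centred 61.6 to 71.6 kb downstream of the Gzmb start held no word that occurs once. Within 1 kb of the gene start the share was 100% at Gzmb and Gzmn, 94.4% at Gzmc, 82.7% at Gzmg, 79.3% at Gzme, 73.1% at Gzmd and 60.2% at Gzmf. Reads that aligned to more than 1 place were not kept, and the part of this in the missing calls was not tested. The called region 14 kb upstream of Gzmb was partly repeated, with 58.1% unique words, unlike the 5 bins that held none.

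The Gzmc start region has relatives at the other starts of the cluster. Of the 9 Runx3-bound regions from the cluster to Atp12a, it was the only one with a copy of at least 200 aligned bases inside the cluster, and it had 6. Copies lay just upstream of Gzmf (83.7% identity, centred 0.155 kb upstream of the start), Gzmg (81.2%, 0.149 kb), Gzme (79.3%, 0.157 kb) and Gzmd (78.9%, 0.140 kb). At Gzmn, which has no such copy at its annotated start, 1 copy lay 6.35 kb upstream (82.3%) and 1 inside the gene 5.33 kb downstream of the start (78.4%). None of the 6 copies overlapped a region of either list.

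Both RUNX motifs of the Gzmc region were kept in the 4 copies at gene starts. The windows below show the motif nearer to the Gzmc start with 12 bases on either side on the gene strand, with the 6 letters opposite the Gzmc motif in capitals.
Gzmc, called: tcaggaggtcagTGTGGTaacagtgtcatt
Gzmf start, not called: ataggatgtcagTGTGGTgattgtgtcatt
Gzmg start, not called: ataggatgtcagTGTGGTgatagtgtcatt
Gzme start, not called: ataggatgtcagTGTGGTaacagtgtcatt
Gzmd start, not called: ataggatgtcagTGTGGTgatagtgtcatt
Gzmn inside the gene, not called: ataggatgtcagTGTGGTgatagtgtcatt
Gzmn upstream, not called: tcaggaggtcagTATGGTaacagtgtcatt
The copy upstream of Gzmn, which is otherwise the same as Gzmc over these 30 bases, lacked the motif through a single substitution, G2A, counted from 1 at the 5′ end of the 6 capitals. The other motif of the pair, read on the opposite strand, is shown for Gzmc, for a copy at a gene start and for the copy that lost it.
Gzmc, called: caggcctccttaACCACAgcctccacatcc
Gzmf start, not called: tcggcatcctcaACCACAgcctccaaccat
Gzmn inside the gene, not called: caggccttctcaACTACAgcctccaaccat
There the copy inside Gzmn carried the substitution C3T, counted in the same way. The 4 copies at the starts of Gzmf, Gzmg, Gzme and Gzmd thus held 2 TGTGGT motifs each, like Gzmc, and both copies at Gzmn held 1.

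By unique words the copies lay in the same range as the called region or above it. Words that occur once in the genome made up 97.5% of the copy at Gzmf, 96.3% at Gzme, 92.7% at Gzmg, 90.6% at Gzmd, and 92.2% and 99.1% of the copies at Gzmn, against 90.1% of the Gzmc region itself. Beyond the copies the sequence was more often repeated at Gzmf, Gzmd, Gzme and Gzmg, as given above for 1 kb around their starts, and the part of that in the calls was not tested.

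**Figure D2:**
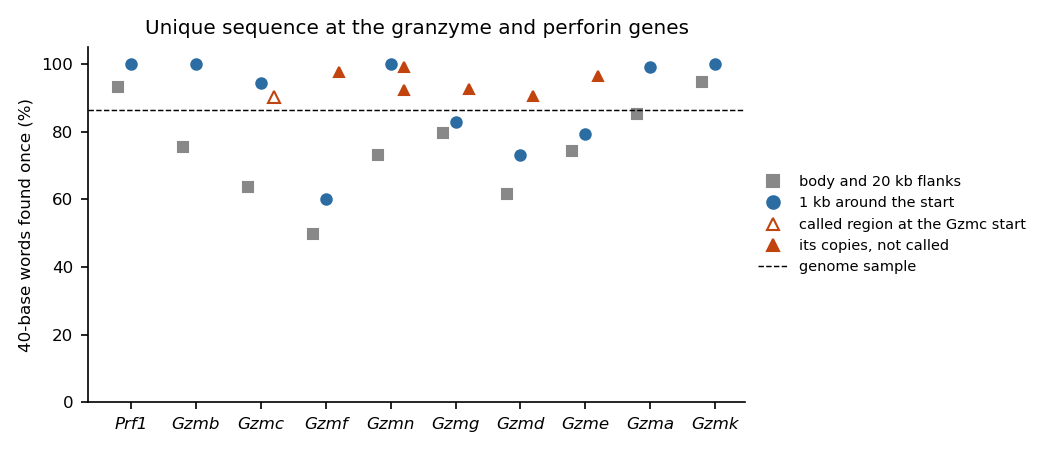
Unique sequence at the 10 genes. Points give the percentage of 40-base words that occur once in the genome for the window (grey squares), for 1 kb on either side of the start (blue circles), for the called region at the Gzmc start (open triangle, 90.1%) and for its copies, none of which was called (filled triangles, 90.6% to 99.1%); the dashed line is the genome sample (86.3%).

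Promoter sequences of RefSeq on GRCm38.p6, 300 bases each, were searched for the motif without regard to the peak lists. All 10 genes matched 1 promoter each. TGTGGT was present in 8 of 10, against 16.8% of all 32851 promoters, with 2 matches each at Gzmb, Gzmc, Gzmd, Gzme, Gzmf and Gzmg and 1 each at Gzma and Prf1. Those of Gzmc, Gzmd, Gzme, Gzmf and Gzmg are related in sequence, as shown above, and do not count as separate cases. None of the 4 RUNX variants was found at Gzmk or Gzmn, whereas 45.2% of all promoters held at least 1 of the 4. Of the 8 genes with the motif, 3 had a Runx3-bound region within 1 kb of the start.

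Prf1, which encodes perforin (chr10:60760584-60767011, plus strand), held 3 Runx3-bound regions that fell at its start, in its intron and past its end. The region at the start, chr10:60760308-60760770, was 463 bp wide, was centred 0.0450 kb upstream, overlapped the 5′ UTR and lay wholly within an H3K4me1-marked region of 2701 bp. The intronic region, chr10:60763765-60764292, was 528 bp wide, was centred 3.44 kb downstream of the start and lay 2170 bp from the nearest H3K4me1-marked region. It was the only one of the 8 with the T-box motif TCACACC, 12.5% (2.24 to 47.1%) against 11.3% of all 9135 Runx3-bound regions.

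The third, chr10:60768726-60769464, was 739 bp wide and was centred 8.51 kb downstream of the Prf1 start in intergenic sequence. It held 6 RUNX motifs (2 TGTGGT and 4 TGTGGC), the most of the 8, against a median of 2.00 per region here and 2.00 in the whole list. It bridged a short break between 2 H3K4me1-marked regions of 1157 and 1130 bp, which covered 93.8% of it. A further H3K4me1-marked region of 1422 bp was centred 10.7 kb downstream of the start. Beyond the window, Runx3-bound regions centred 22.0 kb upstream and 36.9 kb downstream of the start both lay wholly within H3K4me1, the first 2.38 kb from a start of the neighbouring gene Adamts14.

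**Figure D3:**
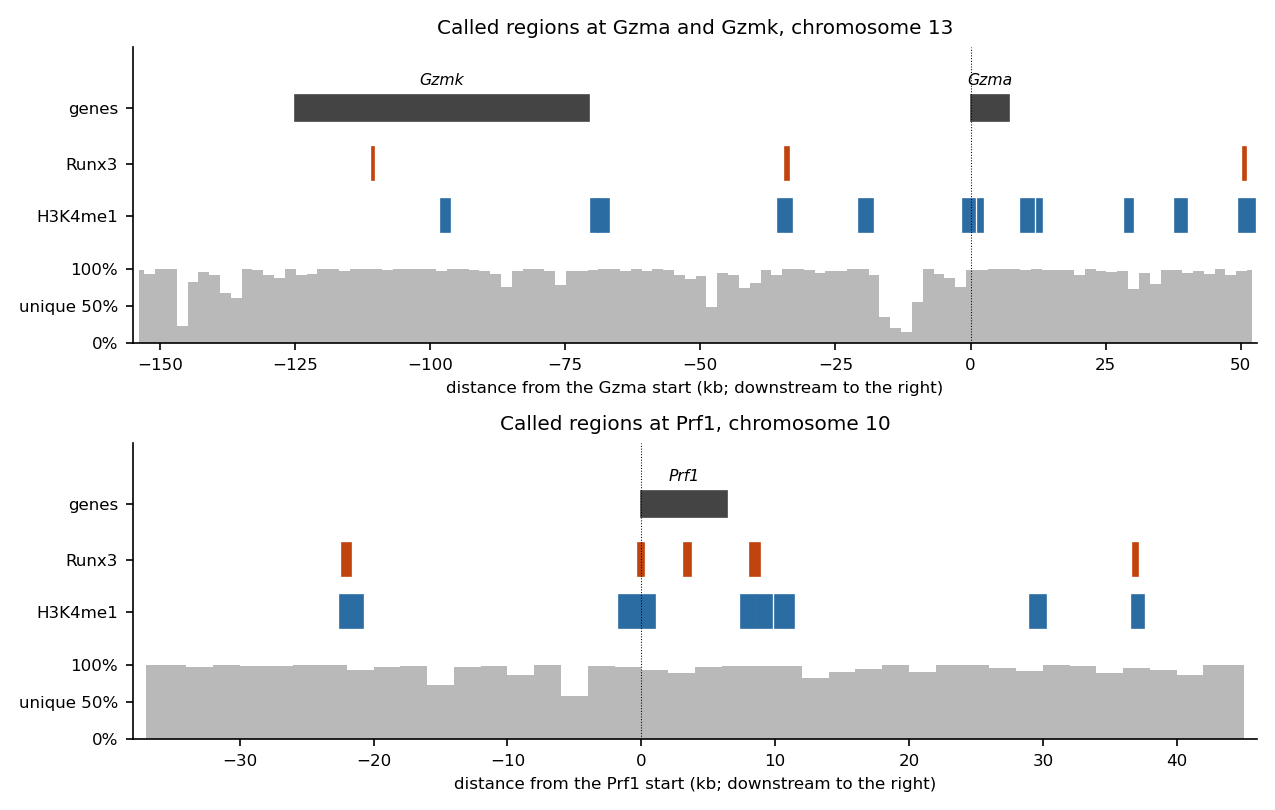
The chromosome 13 and chromosome 10 loci. Genes, Runx3-bound regions (orange) and H3K4me1-marked regions (blue) are drawn to scale by distance in kb from the Gzma start (upper panel) and from the Prf1 start (lower panel), with the percentage of 40-base words that occur once in grey; Gzma carries H3K4me1 and no Runx3-bound region within 33.6 kb of its start, and Prf1 carries 3 Runx3-bound regions within 20 kb.

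Gzma, the gene of granzyme A (chr13:113884033-113891187, minus strand), was marked without a called Runx3 region. Its start lay in an H3K4me1-marked region of 2215 bp that covered the 5′ UTR and a coding exon, and a region of 860 bp lay in its intron 1.87 kb downstream of the start. Of the other 3, those of 2295 and 846 bp lay 10.5 and 12.8 kb downstream of the start within the neighbouring gene Cdc20b, and the one of 2514 bp lay 19.4 kb upstream. Its 5 regions ranked Gzma among the 6.58% of genes with at least as many. The nearest Runx3-bound region, chr13:113924807-113925451, of 645 bp, was 33.6 kb upstream of the start, between Gzma and Gzmk. It held 2 TGTGGT motifs and lay wholly within an H3K4me1-marked region of 2585 bp. The share of 40-base words that occur once was 99.2% within 1 kb of the Gzma start, and its promoter held 1 TGTGGT motif.

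Gzmk, the gene of granzyme K (chr13:113961816-114016116, minus strand), owed its Runx3-bound region to 1 annotated transcript. The longest Gzmk transcript spans 54.3 kb, while all others together span 9.28 kb. The region, chr13:114001564-114001918, of 355 bp, lay in an intron of the long transcript and at the same time in an intron of Esm1, 1.87 kb from an Esm1 start, and 12476 bp from the nearest H3K4me1-marked region. Without the long transcript Gzmk held no Runx3-bound region, the nearest being 30.4 kb from its start, and kept all 3 H3K4me1-marked regions. Of those 3, the regions of 1386 and 1970 bp lay just past the 3′ end of the gene and the third, of 1626 bp, lay in the intron of the long transcript. No H3K4me1-marked region lay within 1 kb of either Gzmk start.

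In sequence, the 8 Runx3-bound regions at the 10 genes were all positive for a RUNX motif, 100% (67.6 to 100%) against 92.6% of all 9135. All 8 held it in their central 200 bp (67.6 to 100%) against 78.7% of the list. TGTGGT was found in 8 of 8 regions against 69.6%, and in the central 200 bp of 7 of 8, 87.5% (52.9 to 97.8%), against 54.3%. TGTGGC was found in 2 of 8 (7.15 to 59.1%) against 45.7%, TGCGGT in 1, at the Gzmb region 14 kb upstream, against 20.8%, and TGCGGC in none against 16.3%. The Wilson interval from 8 regions included the value of the whole list for each of these measures.

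**Figure D4:**
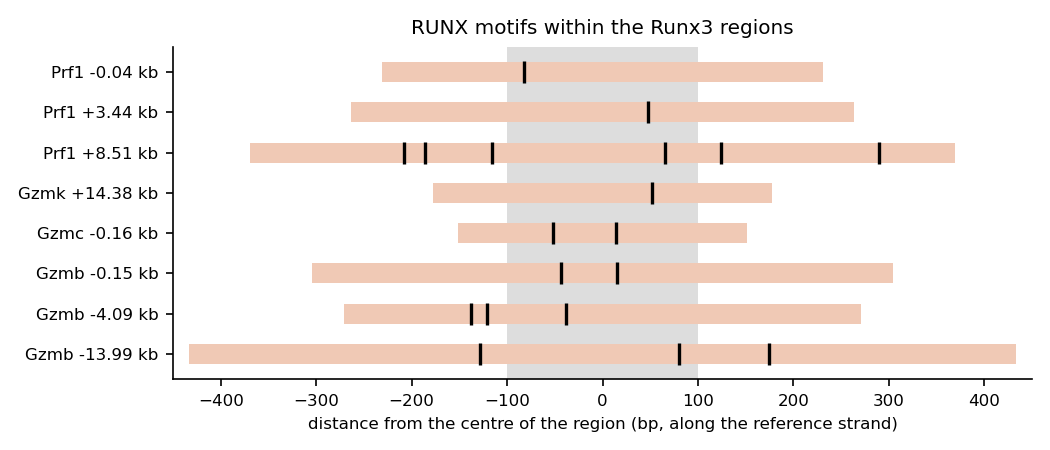
RUNX motifs in the 8 Runx3-bound regions at the 10 genes. Each bar is a region drawn from its centre in bp, black ticks are matches to any of the 4 RUNX variants on either strand, and the grey band is the central 200 bp; every region has a tick in the band, and the Prf1 region 8.51 kb downstream has 6 in all.

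Partner motifs were found in fewer of the 8 regions. The ETS motif was searched as CGGAAA, with the variant CGGAAG, and as AGGAAA, with the variant AGGAAG. It was found in 6 of 8 regions, 75.0% (40.9 to 92.9%) against 88.9% of the list, and was not found in the Gzmb regions 4.09 and 14 kb upstream. An AP-1 motif (TGACTCA, whose reverse complement is TGAGTCA) was found in 1 of 8, the Gzmb start, against 13.5%. It lay within 50 bp of both RUNX motifs there, and such a RUNX-AP-1 pair was found in 5.78% of all Runx3-bound regions. A STAT motif (TTCNNNGAA) was found in 3 of 8 (37.5%, 13.7 to 69.4%) against 21.5%. RUNX-ETS pairs at most 50 bp apart were found in 3 of 8 against 57.4%, the starts of Prf1 and Gzmc and the Prf1 downstream region, and RUNX-RUNX pairs in 2 of 8 against 37.4%. For each of these the interval from 8 regions included the value of the whole list.

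The distance to annotated transcript starts is given as a description, since the windows were drawn around genes and the rule thereby favours regions near a start. The centres of the 8 regions were under 1 kb from a start in 3 of 8 (37.5%, 13.7 to 69.4%) against 26.3%, 1 to 5 kb away in 4 of 8 (21.5 to 78.5%) against 17.3%, and over 5 kb away in 1 of 8 (12.5%, 2.24 to 47.1%) against 56.4%. Starts of any gene count here. The region 8.51 kb from the Prf1 start was classed by Rpl27a-ps1, 3.47 kb away. That 14.4 kb from the Gzmk start was classed by Esm1, 1.87 kb away. The 8 regions had a median width of 535 bp (303 to 866 bp) against 521 bp, and the 19 H3K4me1-marked regions 1537 bp (846 to 3853 bp) against 1592 bp. Overlap with H3K4me1 was found for 4 of the 8 (21.5 to 78.5%) against 57.3%, and 5 of the 19 H3K4me1-marked regions held a Runx3-bound region, 26.3% (11.8 to 48.8%) against 29.2%.

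Other genes of the cytotoxic granule pathway were counted with the same windows. Of 20 genes 19 were in the annotation, of which 11 held a Runx3-bound region (34.2% of all genes), 15 an H3K4me1-marked region (39.3%), 9 an overlapping pair (17.8%) and 4 a Runx3-bound region within 1 kb of the start (9.42%). The median was 1 Runx3-bound and 3 H3K4me1-marked regions per gene, against 0 and 0 over all protein-coding genes.

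Among cargo and its regulators, the granzyme Gzmm held 2 Runx3-bound regions, and the granule proteoglycan gene Srgn held 3. Cst7, which encodes a cystatin that inhibits granzyme-processing cathepsins, held 1 across its start, and the serpin genes Serpinb9, whose product inhibits granzyme B, and Serpinb6b held 1 each. The cathepsin genes Ctsc and Ctsh, whose products process granzymes, held none. Among genes of granule traffic and release, Rab27a held 3, Nkg7 and Unc13d 2 each, with 1 at the start in both, and Lyst 1. No Runx3-bound region was called at Lamp1, Lamp2, Ap3b1, Stx11, Stxbp2 or Vamp8. The death ligand gene Fasl held 4 Runx3-bound regions, all within H3K4me1-marked sequence at least in part, and 9 H3K4me1-marked regions that covered 55.5% of its window, more than at any of the 10 genes. Tnfsf10 held 1 Runx3-bound and 5 H3K4me1-marked regions.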

How the data were processed

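Splenic CD8-TC grown with IL-2 gave 5 ChIP-seq libraries, 2 for Runx3, 2 for NIS and 1 for H3K4me1. The protocol in the labels names replicate experiments for both antibodies, so the H3K4me1 list may rest on more reads than 1 library. Per the labels and the study's methods, fragments of about 300 bp gave reads of 40 to 42 bases, which the authors aligned to mm9 with ELAND. Uniquely aligned reads of the repeats were joined, the larger set was scaled down to the smaller, and MACS called peaks against joined NIS. The deposited values are start and end positions in bp, with 0 columns of height, score or p-value. No depth behind a region, replicate spread or test was therefore available. The paper gives total read numbers, which for Runx3, NIS and H3K4me1 were all lower in these cells than in its resting CD8-TC. The absence of a call is thus not read as absence of binding. Unique alignment limits detection in repeated sequence.

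Regions were counted in gene bodies of GENCODE vM1 on NCBIM37, which is mm9, extended by 20 kb, with an overlap of at least 1 bp and positions counted from 1. All 28127 regions fitted its chromosomes. Counts are given beside those over all 22367 protein-coding genes. Distances run from the centre of a region to the start of the gene, except that those to the nearest region of a list run to its nearer edge. The shares by distance use the nearest annotated transcript start of any gene. Motifs were searched on both strands. A 40-base word was called unique when the genome, both strands read, holds it once, which approximates but is not the aligner's own measure. Copies were found with blastn 2.17.0 (at least 200 aligned bases, low-complexity filter off). Promoters came from RefSeq on another build (GRCm38.p6) and were used without coordinates. Python 3.11.15, NumPy 2.4.6, SciPy 1.17.1 and matplotlib 3.10.9 were used, and the counting functions were checked on simulated data.

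The 10 genes, the gene lists and the motifs were chosen with earlier results of these data known. All 10 genes are named with every region of their windows, and genes of the lists where they hold a Runx3-bound region or neighbour a member. Granule pathway genes without one are named too. Alternatives were other flanks, another rule of overlap, merged or widened regions, the central 200 bp for motifs and 1 start per gene. Gzmk without its longest transcript and windows around the start alone were chosen after the data were seen. Vamp7 and Mcpt10 were not found by these symbols in the annotation and were not analysed here.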

Additional observations from a re-analysis of the deposited data

How the results depend on the processing

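Of 41 alternative values for 7 results, 36 stayed within 1.5 times the count or inside the interval of the share, and the other 5 followed from the length of the flank. With no flank the 8 Runx3-bound regions became 4 and the 19 H3K4me1-marked regions became 5. With a flank of 5 kb the H3K4me1-marked regions numbered 12. With a flank of 50 kb there were 16 Runx3-bound and 31 H3K4me1-marked regions, and 4 of the 8 added Runx3-bound regions lay upstream of Gzmb. The number of genes with a Runx3-bound region was 3 to 6 and with an H3K4me1-marked region 4 to 6 over all flanks tried. Without the longest Gzmk transcript, 3 genes held a Runx3-bound region and 7 regions remained. Merging across breaks under 1 kb left 8 regions of Runx3 and 13 of H3K4me1. The share of Runx3-bound regions overlapping H3K4me1 ranged from 50% to 75.0%, the latter with 50 kb flanks and 16 regions. No paired analysis was possible because peaks had been called once on the joined reads of the repeats. With 8 regions, shares are known only within the wide intervals given.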

Other observations

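The chromosome 14 granzymes are followed by the mast cell and neutrophil protease genes of the same family. Of 9 such genes 8 were in the annotation, namely Cma1, Cma2, Ctsg, Mcpt1, Mcpt2, Mcpt4, Mcpt8 and Mcpt9. None held a Runx3-bound region, against 34.2% of all protein-coding genes. An H3K4me1-marked region was held by 2 (Cma1 and Cma2), against 39.3%, and it was the same region for both. The windows of Cma1 and Cma2 overlap, as do those of neighbouring genes from Mcpt1 to Ctsg, so the 8 genes do not count as separate cases. For Ctsg, Mcpt1, Mcpt2, Mcpt4, Mcpt8 and Mcpt9 the nearest Runx3-bound region was 104 to 149 kb from the gene start.

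The intergenic Runx3-bound region between Gzma and Gzmk, 33.6 kb from the Gzma start, fell outside every window. It lay wholly within H3K4me1, as did the Runx3-bound region 50.7 kb downstream of the Gzma start in an intron of Cdc20b. The latter had no match to any of the 4 RUNX variants, and was the only one of the 16 Runx3-bound regions within 50 kb of the 10 genes without one. All 8 of the Runx3-bound regions between 20 and 50 kb from the gene bodies overlapped H3K4me1, against 4 of the 8 within 20 kb and 57.3% of the whole list. Of the outer 8, 4 lay in the 50 kb upstream of Gzmb, where H3K4me1 covered 48.7%, and do not count as separate cases. The difference was not tested.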
